A study of Mus musculus with 6 samples.

Results

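The mucus genes described here are Muc2, Tff3, Fcgbp, Clca1, Zg16, Agr2, Spink4, Tpsg1 and Rep15, which are 9 of the 32285 genes in each count matrix. They were chosen by name, and each had counts in the 6 libraries. The libraries hold single cells of mouse small intestinal organoids on day 3 of culture. WT organoids, from adult mice, received the DMSO vehicle (-EIPA, n = 2 libraries) or 5 µM EIPA (+EIPA, n = 2), an amiloride analog that lowers the efflux of acid from the cell. The other line carried an inducible-CRISPR-Cas9 construct, delivered by lentivirus and grown from single clones under puromycin, and was kept without doxycycline (-Dox, n = 1) or with 2 µg/mL (+Dox, n = 1). Both Dox groups share the construct. Sorting took live cells, and in +Dox live cells that were GFP+ as well, so the sort differs between the Dox groups. The study asked how the pH inside cells bears on the lineages of the intestinal stem cell, and the values below say how the genes of the mucus layer stood in its secretory cells.

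Goblet cells pack a gel-forming mucin into large granules and release it over the epithelium, where it swells into mucus that keeps bacteria and food away from the cells. The mucin is folded and linked by disulfide bonds in the endoplasmic reticulum, decorated with sugars in the Golgi, and stored with a set of smaller proteins that bind, cut or protect it. In the small intestine goblet and Paneth cells come from the same secretory progenitors, and both keep granules.

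Muc2 encodes that mucin and Fcgbp a large protein bound to it in the gel. Clca1 encodes a secreted protease that acts on the mucin, and Zg16 a lectin that binds bacterial cell walls. Tff3 encodes a trefoil peptide of the mucus and Spink4 a Kazal-type protease inhibitor. Agr2 encodes a protein disulfide isomerase of the endoplasmic reticulum that mucin production needs. Tpsg1 encodes a membrane-bound tryptase and Rep15 an effector of the vesicle GTPase RAB15. On GRCm38, Muc2 lies on chromosome 7 from 141690340 to 141754693, Fcgbp on chromosome 7 from 28071236 to 28120862, Zg16 on chromosome 7 from 127050156 to 127087328, and Clca1 on chromosome 3 from 145003817 to 145032776. Tff3 lies on chromosome 17 from 31125306 to 31129646, Tpsg1 on chromosome 17 from 25369273 to 25374442, Agr2 on chromosome 12 from 35992907 to 36004087, Spink4 on chromosome 4 from 40920052 to 40931395, and Rep15 on chromosome 6 from 147032584 to 147034245. Zg16, Clca1 and Tff3 are on the minus strand and the others on the plus strand. No gene overlaps any of the 9 on its own strand. Tpsg1 overlaps the end of Cacna1h on the opposite strand.

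The secretory lineage is set by ATOH1, a basic helix-loop-helix factor, and such factors bind E-boxes, so the 250 bases before RefSeq's start site are shown for Muc2, Fcgbp and Agr2, the genes of the gel's scaffold and its folding. RefSeq's table of this build (GRCm38.p6) held a promoter for 4 of the 9 genes, these and Tpsg1. Capitals mark the E-box CANNTG, read on both strands, which for this motif is the same search.
Muc2 promoter (chr7:141690090-141690339, plus strand): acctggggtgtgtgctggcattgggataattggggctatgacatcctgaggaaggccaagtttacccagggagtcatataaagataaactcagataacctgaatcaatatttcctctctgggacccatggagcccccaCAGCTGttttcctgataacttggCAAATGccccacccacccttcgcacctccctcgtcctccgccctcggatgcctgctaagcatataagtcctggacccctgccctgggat
Fcgbp promoter (chr7:28070986-28071235, plus strand): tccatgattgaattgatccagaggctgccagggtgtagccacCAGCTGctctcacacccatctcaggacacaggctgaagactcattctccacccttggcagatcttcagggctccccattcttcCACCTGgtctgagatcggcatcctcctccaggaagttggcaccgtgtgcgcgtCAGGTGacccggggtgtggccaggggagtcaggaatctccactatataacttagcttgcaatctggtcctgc
Agr2 promoter (chr12:35992675-35992924, plus strand): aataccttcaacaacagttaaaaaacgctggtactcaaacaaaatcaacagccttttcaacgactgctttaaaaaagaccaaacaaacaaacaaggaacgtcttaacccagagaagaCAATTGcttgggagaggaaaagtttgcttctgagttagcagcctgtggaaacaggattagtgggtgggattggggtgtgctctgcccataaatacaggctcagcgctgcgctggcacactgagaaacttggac
The Muc2 window holds CAGCTG at -112 and CAAATG at -89 from the start site. The Fcgbp window holds CAGCTG at -208, CACCTG at -125 and CAGGTG at -72, and the Agr2 window holds CAATTG at -133. RefSeq's start of Agr2 lies downstream of the GENCODE start given above, so this window runs into the GENCODE gene. Of 32851 mouse promoter windows of this length, 66.2% hold at least 1 CANNTG and 13% at least 1 CAGCTG, so these matches are a description of the sequence.

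After cells with under 1000 genes or with 20% or more mitochondrial counts were left out, 87954 cells remained, between 12083 and 18211 per library, with median depths of 11477.5 to 17020 unique molecular identifiers (UMIs, each standing for 1 captured RNA molecule). Libraries shared between 0.273% and 0.563% of the smaller library's barcodes. Cells were clustered on genes that included none of the 9 and none of the mucus pathway genes below, and clusters were named from marker genes, with "-like" for a name that rests on markers alone. Goblet-like cells numbered 2190, Paneth-like cells 6407 and secretory-progenitor-like cells 1517. In the Goblet-like cells 19 of 19 Goblet markers reached 10 CPM (a gene's UMIs over all UMIs of a class and library, scaled to 1e6) in every library, with a summed level of 4940 to 9639 CPM. In Paneth-like cells 17 of the 19 did so, with a sum of 3185 to 5625 CPM. These ranges overlapped, though the sum was higher in the Goblet-like cells of each library. In progenitor-like cells 13 of the 19 did so, with a sum of 1760 to 2952 CPM. Paneth markers summed to 24228 to 70471 CPM in Goblet-like cells, against 89223 to 179314 CPM in Paneth-like cells. Of the Goblet-like sub-clusters, number 1 (1467 of the 2190 cells) was highest in defensin genes, at 1.48% to 6.23% of its UMIs. Sub-cluster 12 had 0.437% to 3.18% and sub-cluster 11 0.175% to 0.731%. The range of sub-cluster 1 overlapped those of Paneth-like sub-clusters 3 (3.08% to 8.32%), 6 (1.32% to 4.16%), 7 (1.14% to 5.97%) and 9 (2.58% to 8.45%). It lay below those of the other Paneth-like sub-clusters, so defensin genes did not part it from all Paneth-like cells. The 8 markers of non-epithelial cells summed to 1.63 to 5.74 CPM in the Goblet-like cells, 4 of them at 0 in every library. A sub-cluster of 232 cells, number 13, stayed unnamed because Paneth markers led its 10 top genes and Goblet markers its 20 top genes.

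A value for a class is the lowest, the median and the highest of the 6 libraries. Muc2 had 848, 1259 and 2264 CPM in Goblet-like cells, 722, 981 and 1168 CPM in Paneth-like cells and 73.7, 124 and 671 CPM in secretory-progenitor-like cells. The ranges of the first and second class overlapped, while every progenitor value lay below every Goblet-like and Paneth-like value. Fcgbp had 3993, 5222 and 5784 CPM in Goblet-like, 1197, 1288 and 1738 CPM in Paneth-like and 1371, 1990 and 2323 CPM in progenitor-like cells. Here the Goblet-like range stood clear of the others, and the Paneth-like and progenitor-like ranges overlapped. In Enterocyte-like cells, which should lack both genes, the medians were 25.4 CPM for Muc2 and 88.5 CPM for Fcgbp.

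Clca1 and Zg16 had the widest spread between classes. Clca1 had 125, 214 and 306 CPM in Goblet-like cells, 23.5, 33.0 and 39.1 CPM in Paneth-like cells and 18.8, 49.4 and 194 CPM in progenitor-like cells. Sub-cluster 13 reached 1937, 3935 and 8111 CPM, and the Regenerative-like cells 115, 249 and 357 CPM, a range that overlapped the Goblet-like one. Zg16 had 759, 1779 and 4070 CPM in Goblet-like cells, 160, 371 and 481 CPM in Paneth-like cells, 15.6, 168 and 2181 CPM in progenitor-like cells and 10534, 17655 and 50331 CPM in sub-cluster 13. For both genes sub-cluster 13 lay above every other class in each library, although it held only 9 to 106 cells per library. Enterocyte-like medians were 4.88 CPM for Clca1 and 33.3 CPM for Zg16.

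Tff3 and Spink4 were abundant in Goblet-like, Paneth-like and progenitor-like cells. Tff3 had 17290, 19928 and 30366 CPM in Goblet-like cells, 10069, 11334 and 16304 CPM in Paneth-like cells and 6523, 7977 and 12117 CPM in progenitor-like cells. The Goblet-like values stood above all Paneth-like values, and the Paneth-like and progenitor-like ranges overlapped, but neither held without the cells of highest doublet score, as given below. Spink4 had 18988, 20996 and 30643 CPM in Goblet-like and 14982, 20947 and 29678 CPM in Paneth-like cells, ranges that overlapped almost wholly, and 3787, 4695 and 9029 CPM in progenitor-like cells. Outside the secretory clusters Tff3 had a median of 2585 CPM in Regenerative-like cells (213 to 801 CPM per library without 146 cells rich in the 9 genes). The medians were 2052 CPM in EEC-like (enteroendocrine) cells and 388 CPM in Enterocyte-like cells. Of the EEC-like cells of a library, 1.86% to 5.56% had 2% or more of their UMIs in the 9 genes. The EEC-like level without those cells was not taken.

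Agr2 had 8487, 8837 and 9338 CPM in Goblet-like cells, the narrowest relative range of the 9 genes there. It had 2075, 2610 and 3068 CPM in Paneth-like cells and 2123, 2470 and 3673 CPM in progenitor-like cells, which overlapped, and a median of 251 CPM in ISC-like (stem) cells against 119 CPM in Enterocyte-like cells. Tpsg1 had 243, 270 and 320 CPM in Goblet-like, 97.3, 109 and 120 CPM in Paneth-like and 46.0, 50.6 and 91.8 CPM in progenitor-like cells. The 3 classes did not overlap for Tpsg1. Rep15 had 160, 203 and 233 CPM in Goblet-like cells and 40.4, 59.4 and 82.0 CPM in progenitor-like cells, while the Paneth-like libraries lay between 47.9 and 49.4 CPM, inside the progenitor range. Differences between classes are described and not tested, since the classes are clusters of the same cells.

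**Figure D1:**
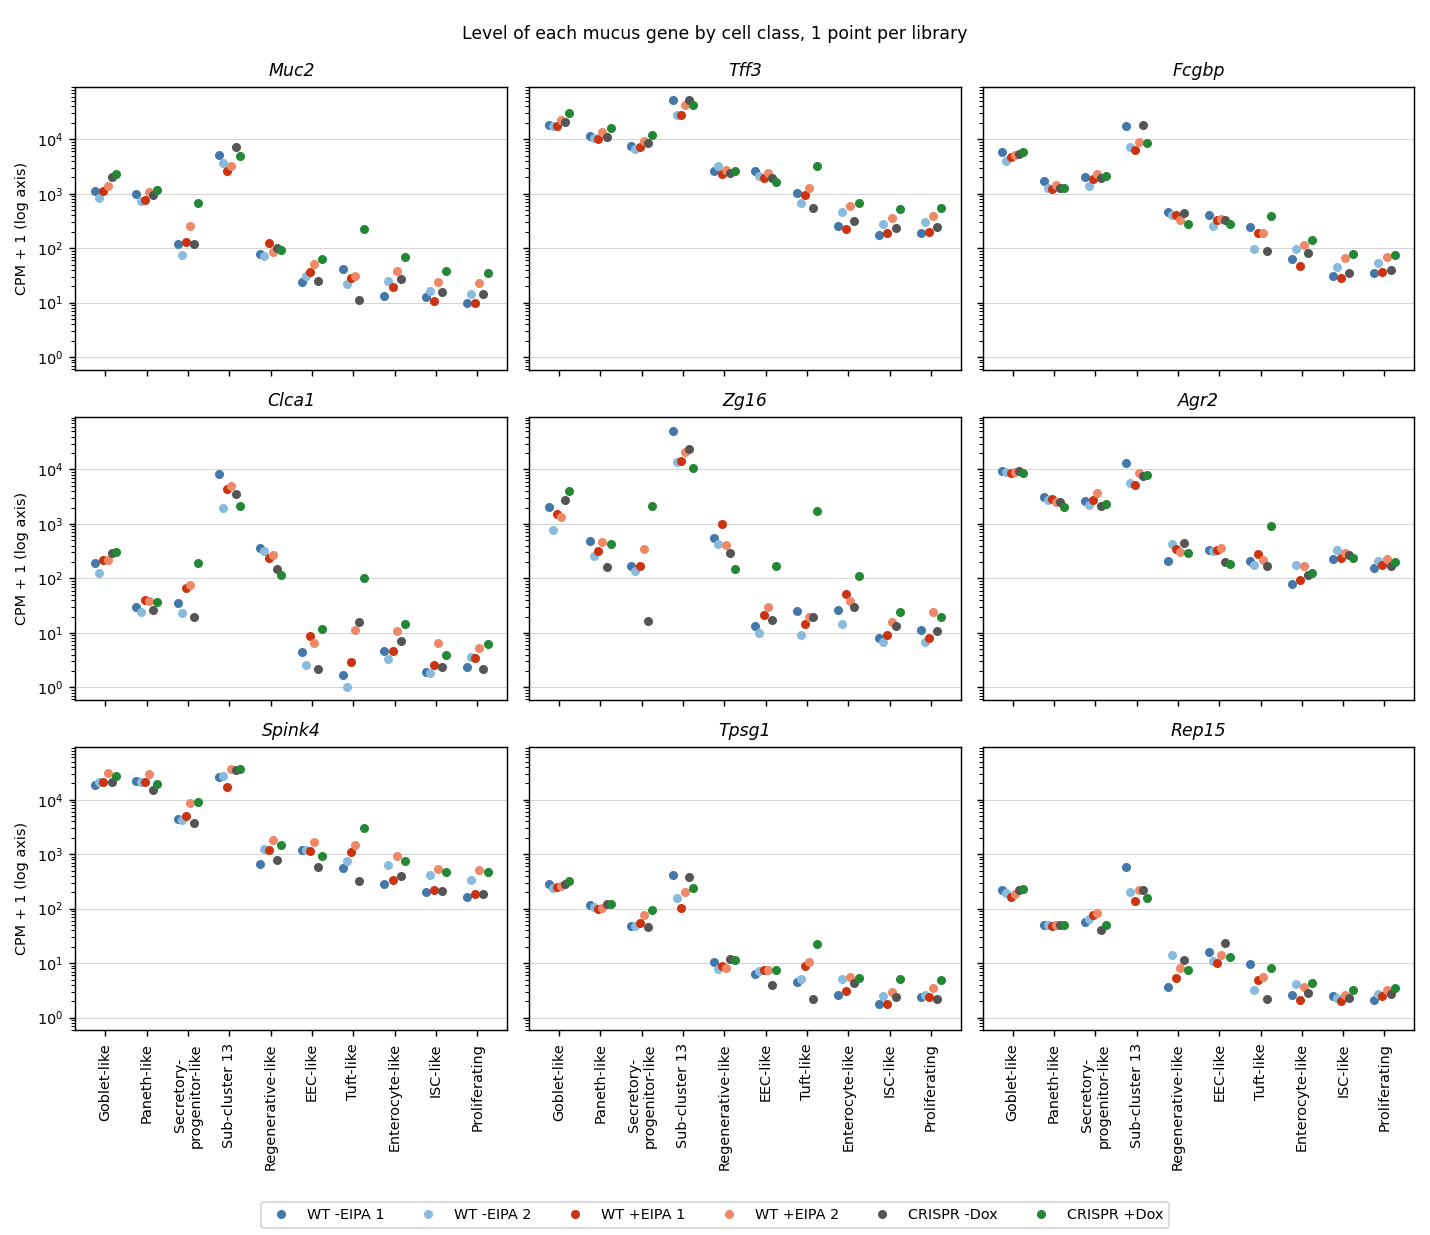
Level of each of the 9 genes in CPM (plotted as CPM + 1 on a log axis) by cell class, 1 point per library, colored by library. Clca1 lies at 125 to 306 CPM in Goblet-like cells and at 1937 to 8111 CPM in sub-cluster 13, whereas the Goblet-like and Paneth-like points of Spink4 overlap.

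The share of cells in which a gene was seen split the 9 genes in another way. Each cell was thinned to 2000 UMIs, so that depth was equal. In Goblet-like cells a UMI of Tff3 was then found in a median of 100% of cells, of Spink4 in 99.5%, of Agr2 in 98.6% and of Fcgbp in 96.5%. Muc2 was found in 65.6%, Tpsg1 in 38.7%, Rep15 in 28.4%, Zg16 in 16.5% and Clca1 in 15.0%. The shares in Enterocyte-like cells were taken as a background level, whose source was not tested. They were 40.2% for Tff3, 52.8% for Spink4, 13.1% for Agr2, 12.2% for Fcgbp, 4.59% for Muc2, 3.75% for Zg16, 0.600% for Tpsg1, 0.551% for Clca1 and 0.398% for Rep15. The 9 shares were above that level in Goblet-like cells. Median depths were 9224 UMIs in Goblet-like and 12833.5 UMIs in Enterocyte-like cells before thinning, and the unthinned Goblet-like shares rose to 86.9% for Muc2, 27.8% for Zg16 and 25.9% for Clca1. In progenitor-like cells Tff3 (98.8%), Spink4 (88.4%), Agr2 (80.9%) and Fcgbp (78.4%) were already found in most cells, while Muc2 (12.8%), Zg16 (4.30%) and Clca1 (4.28%) were found in few, and Zg16 stood close to its share in Enterocyte-like cells.

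Within the Goblet-like class, sub-cluster 11 (422 cells) had the highest levels of Clca1 and Zg16. Its median level was 699 CPM for Clca1 against 36.2 CPM in sub-cluster 1 (1467 cells) and 319 CPM in sub-cluster 12 (301 cells), and 7471 CPM for Zg16 against 97.3 and 1183 CPM. Muc2 was at 2823, 874 and 1269 CPM and Agr2 at 17665, 7008 and 5098 CPM in sub-clusters 11, 1 and 12. Spink4, at 28544 CPM in sub-cluster 11 and 22328 CPM in sub-cluster 1, differed least between these 2. After thinning, a Clca1 UMI was found in 45.8% of the cells of sub-cluster 11, 21.6% of sub-cluster 12, 4.99% of sub-cluster 1 and 70.7% of sub-cluster 13. Among the Paneth-like cells, sub-cluster 4 (735 cells) stood out with a median of 3184 CPM for Muc2 and 56707 CPM for Spink4, both above sub-cluster 11, while its Clca1 was at 35.9 CPM and its Agr2 at 3788 CPM. Of the sub-clusters named here it combined the highest Spink4 level with one of the lowest Clca1 levels. The other Paneth-like sub-clusters had Clca1 medians of 10.2 to 65.5 CPM, so a low Clca1 level was common to the class. The Zg16 median of sub-cluster 4, 1097 CPM, was the highest of the Paneth-like sub-clusters. Paneth-like cells held 48.0% to 61.7% of all Muc2 UMIs of a library and Goblet-like cells 14.3% to 24.3%. Paneth-like cells made up 5.01% to 10.6% of the cells and Goblet-like cells 1.97% to 3.37%. In the +Dox library the Tuft-like cells (58 cells) had 1755 CPM of Zg16, against 8.22 to 23.9 CPM in the Tuft-like cells of the other 5 libraries, and 5 of the 58 cells held 99.5% of those UMIs.

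**Figure D2:**
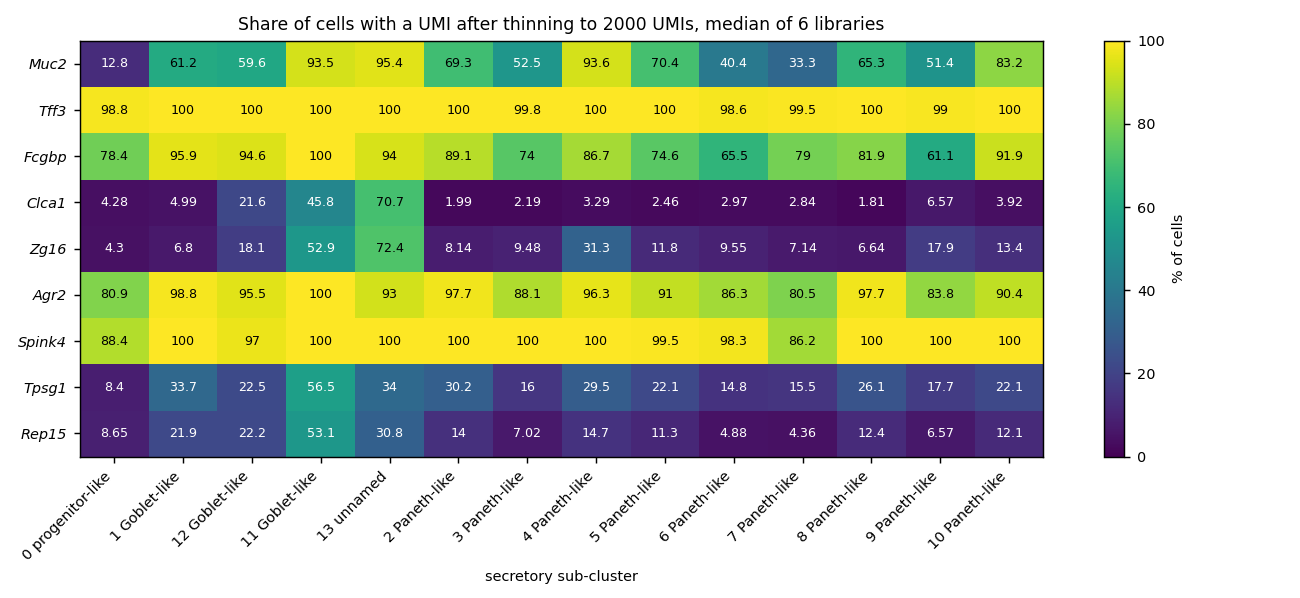
Share of cells (%) with at least 1 UMI of each gene after each cell was thinned to 2000 UMIs, as the median of the 6 libraries, for the 14 secretory sub-clusters. Tff3, Spink4 and Agr2 are found in most cells of every sub-cluster, whereas Clca1 reaches 45.8% in sub-cluster 11 and 70.7% in sub-cluster 13.

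Doublet scores (from Scrublet, which scores each cell by its likeness to simulated pairs of cells) moved with part of the Paneth-like class. In Paneth-like sub-clusters 3, 6 and 9, 49.3%, 81.6% and 88.4% of cells were among the 10% with the highest scores of their library, with median depths of 19476, 28672 and 23979 UMIs. These 3 sub-clusters held 47.1% to 57.5% of the class's UMIs. Over the class the share was 25.9%, against 3.06% in Goblet-like cells, 7.45% in progenitor-like cells and 9.48% in sub-cluster 13. Doublets were kept in the levels and shares above, and the shares of a gene's UMIs by class were not taken again without them. Of the 102993 Muc2 UMIs of Paneth-like cells, sub-clusters 3, 6 and 9 held 13378, 7588 and 10319. Without the 10% of cells of highest score in each library, Tff3 had 13885, 15352 and 19213 CPM in Paneth-like cells and 17869, 20691 and 30697 CPM in Goblet-like cells, so these ranges overlapped, while the Paneth-like range then lay above the progenitor-like one (6665, 8100 and 12406 CPM). Spink4 had 21084, 29570 and 39296 CPM in Paneth-like and 19412, 21817 and 30799 CPM in Goblet-like cells, and Muc2 1032, 1350 and 1416 CPM against 874, 1282 and 2316 CPM, so that both medians were then higher in the Paneth-like cells, with ranges that overlapped. Without sub-clusters 3, 6 and 9 the Paneth-like medians were 16321 CPM for Tff3, 31457 CPM for Spink4 and 1447 CPM for Muc2. In progenitor-like cells the Clca1 median fell from 49.4 to 31.9 CPM without the cells of highest score.

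Counting the 9 genes together, a Goblet-like cell put a median of 4.74% to 6.38% of its UMIs into them, depending on the library, and a Paneth-like cell 3.35% to 5.16%. A progenitor-like cell put in 1.15% to 2.02% and an Enterocyte-like cell 0.0441% to 0.0879%. In the 3 libraries with at least 20 cells of sub-cluster 13 the median was 12.9% to 17.2%. Of the 9 genes, thinned Goblet-like cells showed a median of 5 or 6 at once, and cells of sub-cluster 13 a median of 7.

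The Clca1 RNA of a library came from few cells. Sub-cluster 13, with 0.0714% to 0.877% of the cells, held 16.3% to 44.6% of the Clca1 UMIs, Goblet-like cells 8.83% to 29.7%, and Regenerative-like cells 5.69% to 36.8%. The Regenerative-like share was itself carried by 146 of 1942 cells, those with 2% or more of their UMIs in the 9 genes, which held 88.2% of that class's Clca1 UMIs, 93.2% of its Zg16 UMIs and 73.4% of its Tff3 UMIs. These cells were chosen on the 9 genes, and 66 further cells lay between 1% and 2%. They had 3700 CPM of Clca1 against 28.4 CPM in the rest of the class, and their median summed marker levels were 4814 against 1882 CPM for Paneth, 1890 against 843 CPM for Goblet, 4299 against 1724 CPM for Regenerative and 1383 against 9019 CPM for Enterocyte markers. Their share of high doublet scores was 8.90%, against 5.90% in the rest.

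**Figure D3:**
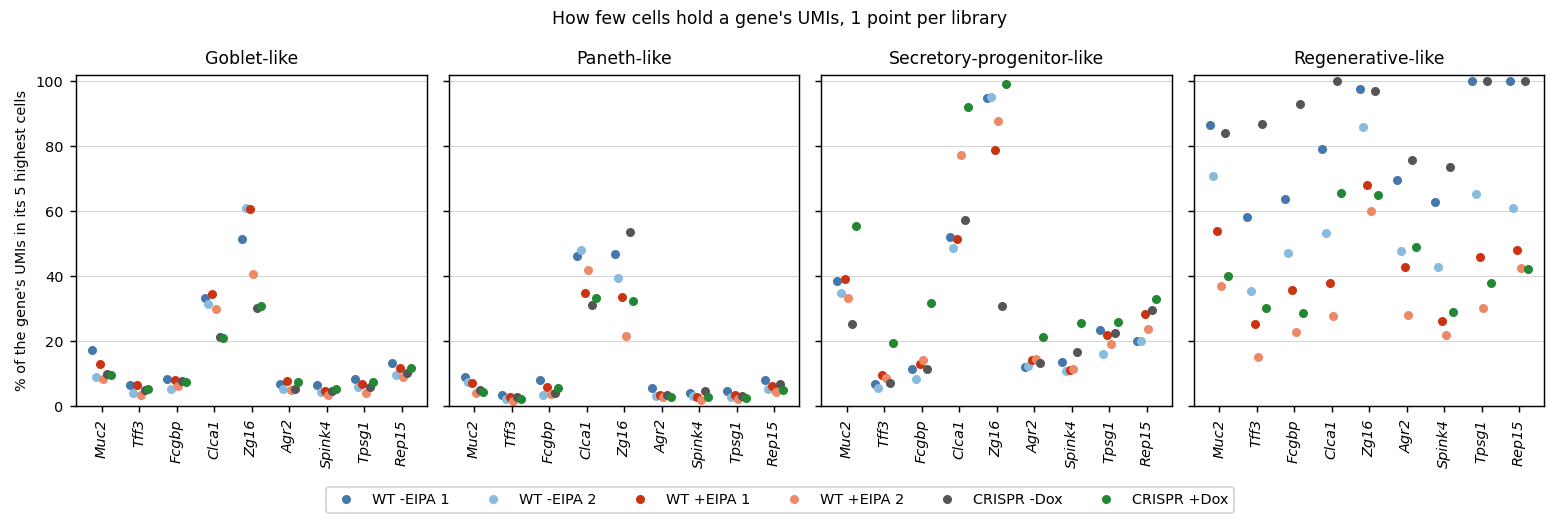
Share of a gene's UMIs (%) held by the 5 cells with most of them, for each gene in 4 classes, 1 point per library. In progenitor-like cells 5 cells hold 48.8% to 92.0% of the Clca1 UMIs and 30.8% to 99.1% of the Zg16 UMIs, and in Goblet-like cells 3.50% to 6.46% of the Tff3 UMIs.

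The 5 cells with most UMIs held 20.9% to 34.7% of the Clca1 UMIs and 30.3% to 61.1% of the Zg16 UMIs among Goblet-like cells, while for the other 7 genes they held between 3.50% and 17.3%. In progenitor-like cells the 5 highest cells held 48.8% to 92.0% for Clca1 and 30.8% to 99.1% for Zg16. The class level of these 2 genes in progenitor-like cells was in most libraries set by a few cells.

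Over the 54 sums of 9 classes and 6 libraries, Tff3 and Fcgbp moved most alike (Pearson's r = 0.985 of log2(CPM + 1)), and Clca1 was most like Zg16 (r = 0.923). With the other 7 genes Clca1 correlated at 0.659 (Rep15) to 0.767 (Muc2 and Fcgbp) and Zg16 at 0.745 (Agr2) to 0.883 (Muc2). The genes most like the mean of the 9, of 10249 compared, were Bcas1 (0.970), R3hdml (0.964), Spats2l (0.953), Kcnk6 (0.953), Sytl2 (0.952), Sval1 (0.934), Kdelr3 (0.932), Smim14 (0.932), Ccl9 (0.926) and Tmprss2 (0.926). Sytl2 encodes a tethering protein of secretory granules and Kdelr3 a receptor that returns proteins to the endoplasmic reticulum. Both are in the pathway lists below. Bcas1, Smim14 and Ccl9 are Goblet markers used to name the clusters, so their likeness follows in part from the naming. Sub-cluster 13 and the unnamed clusters were not among the sums. Classes of 1 library share its depth and its free RNA, so these values describe the pattern and carry no p.

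EIPA was compared over libraries, on the sum of each class in each library, in edgeR's quasi-likelihood test over all genes that passed its filter (n = 2 libraries per group, Benjamini-Hochberg adjusted p under 0.05 as the call). In Goblet-like cells the test called 0 of the 9 genes and 0 of 10046 genes in all (0%), while 577 genes had an unadjusted p under 0.05. With DESeq2 8 genes were called, none of them among the 9. The protease gene Clca1 had 190 and 125 CPM under vehicle and 214 and 214 CPM under the drug, and was the only one of the 9 whose +EIPA libraries both lay above both -EIPA libraries, as did 11.1% of all genes tested. Its log2 fold change was 0.53 (SE 0.182, edgeR adjusted p = 0.805). Muc2 had 1142 and 848 CPM under vehicle and 1133 and 1377 CPM under the drug, and its groups overlapped, with a log2 fold change of 0.42 (SE 0.174, edgeR adjusted p = 0.845). Spink4 had 18988 and 20991 CPM under vehicle and 20852 and 30643 CPM under the drug, with 0.45 on the log2 scale (SE 0.212, edgeR adjusted p = 0.867), and its highest value came from +EIPA replicate 2. Agr2 had 9338 and 8856 CPM under vehicle and 8487 and 8818 CPM under the drug, and Rep15 215 and 191 CPM against 160 and 188 CPM. In both the +EIPA libraries lay below the -EIPA libraries, as did those of 25.2% of all genes, and the fold change of Agr2 after TMM scaling was 4.9e-03 on the log2 scale. The other 5 genes had log2 fold changes between -0.14 (Rep15) and 0.24 (Tff3). Paneth markers in the same Goblet-like cells summed to 28078 and 36682 CPM under vehicle and to 41354 and 70471 CPM under the drug, groups that did not overlap, and their part in these values was not tested. Replicates 1 and 2 are separate preparations, each with and without EIPA, and with the preparation as a block edgeR called Clca1 (adjusted p = 8.82e-05), Muc2 (3.71e-04) and Spink4 (3.28e-06), among 1.73% of all genes, on 1 residual degree of freedom.

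Paneth-like cells gave a like picture. Clca1 had 29.4 and 23.5 CPM under vehicle and 39.1 and 38.2 CPM under the drug, the only gene of the 9 whose groups did not overlap upwards, where 7.08% of all genes did so. Its log2 fold change was 0.66 (SE 0.132) with an edgeR adjusted p of 0.170, and 1.60e-07 with the preparation as a block. The test called 0 of the 9 and 25 of 11973 genes in all (0.209%), while 576 genes had an unadjusted p under 0.05. By DESeq2 the count was 75 genes and none of the 9, with an adjusted p of 0.0965 for Clca1, and with the block 3.70% of all genes were called. The other 8 genes had log2 fold changes between -0.06 (Fcgbp) and 0.36 (Spink4), each with an edgeR adjusted p of 1.00. Muc2 had 1000 and 722 CPM under vehicle and 756 and 1063 CPM under the drug, and the groups overlapped. Tpsg1, with 114 and 105 CPM against 97.3 and 101 CPM, was the only one of the 9 whose +EIPA libraries both lay lower, where 27.4% of all genes did so.

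In secretory-progenitor-like cells Clca1 was higher with EIPA. Its level was 34.2 and 22.5 CPM under vehicle, and 64.5 and 74.6 CPM under the drug, with a log2 fold change of 1.37 (SE 0.199, edgeR adjusted p = 0.0231), and DESeq2 gave an adjusted p of 0.0212. This was 1 of 9 genes, where edgeR called 0.0411% of all 9730 genes tested. Barcodes left out for under 1000 genes had 15.2 and 9.64 CPM of Clca1 under vehicle and 38.9 and 32.4 CPM under the drug. Their part in the Clca1 values of the classes was not tested. The call rested on few UMIs in few cells. Clca1 UMIs were found in 30, 35, 32 and 33 cells of the 4 libraries, and the 5 highest cells held 52.1%, 48.8%, 51.4% and 77.3% of them. Without those 5 cells the levels were 16.9 and 11.7 CPM under vehicle and 32.5 and 17.7 CPM under the drug. The value of +EIPA replicate 2 then stood close to that of -EIPA replicate 1. In +EIPA replicate 2, 4 of the 5 highest cells were among the highest doublet scores, and without the 10% of cells with the highest scores the log2 fold change was 0.85 (edgeR adjusted p = 0.999). The call was also lost without -EIPA replicate 2 (1.08, edgeR adjusted p = 0.218) and without +EIPA replicate 2 (1.24, edgeR adjusted p = 0.0997). 

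The other 8 genes had positive log2 fold changes in these cells, and none was called, though some calls depended on the setting, as given below. Muc2 had 121 and 73.7 CPM under vehicle and 127 and 253 CPM under the drug (log2 fold change 1.04, SE 0.273, edgeR adjusted p = 0.573), and Zg16 171 and 135 CPM against 166 and 352 CPM (0.83). The direction of Zg16 turned without the 10% of cells with the highest doublet scores (-0.37), and in +EIPA replicate 2 its 5 highest cells, 4 of them with such scores, held 87.7% of its UMIs. Spink4 had 4388 and 4162 CPM against 5003 and 8799 CPM (0.75), and Agr2 2588 and 2239 CPM against 2791 and 3673 CPM (0.48). In each of these +EIPA replicate 2 was the highest library, and +EIPA replicate 1 stood closer to the -EIPA libraries than to it. For 6 of the 9 genes (Muc2, Clca1, Agr2, Spink4, Tpsg1 and Rep15) both +EIPA libraries lay above both -EIPA libraries, against 11.5% of all genes, and for none did both lie below, against 22.1% of all genes. With the preparation as a block, 6 genes were called (Muc2, Fcgbp, Clca1, Zg16, Agr2 and Spink4), among 0.781% of all genes. Without +EIPA replicate 1 Muc2, Zg16 and Spink4 had log2 fold changes of 1.46, 1.28 and 1.12, and without +EIPA replicate 2 0.43, 0.16 and 0.26. At resolution 2 of the second clustering these 3 genes and Rep15 were called beside Clca1, where 13 genes were called over all genes tested. The log2 fold changes were 2.11 for Muc2, 4.46 for Zg16, 1.23 for Spink4 and 1.33 for Rep15 (edgeR adjusted p = 0.0202 for Rep15). The class was then smaller, with 126 and 174 cells under vehicle and 103 and 107 cells under the drug. Paneth markers in the same cells summed to 4534 and 6663 CPM under vehicle and 5224 and 13174 CPM under the drug, highest in the same library, and their part in these values was not tested.

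**Figure D4:**
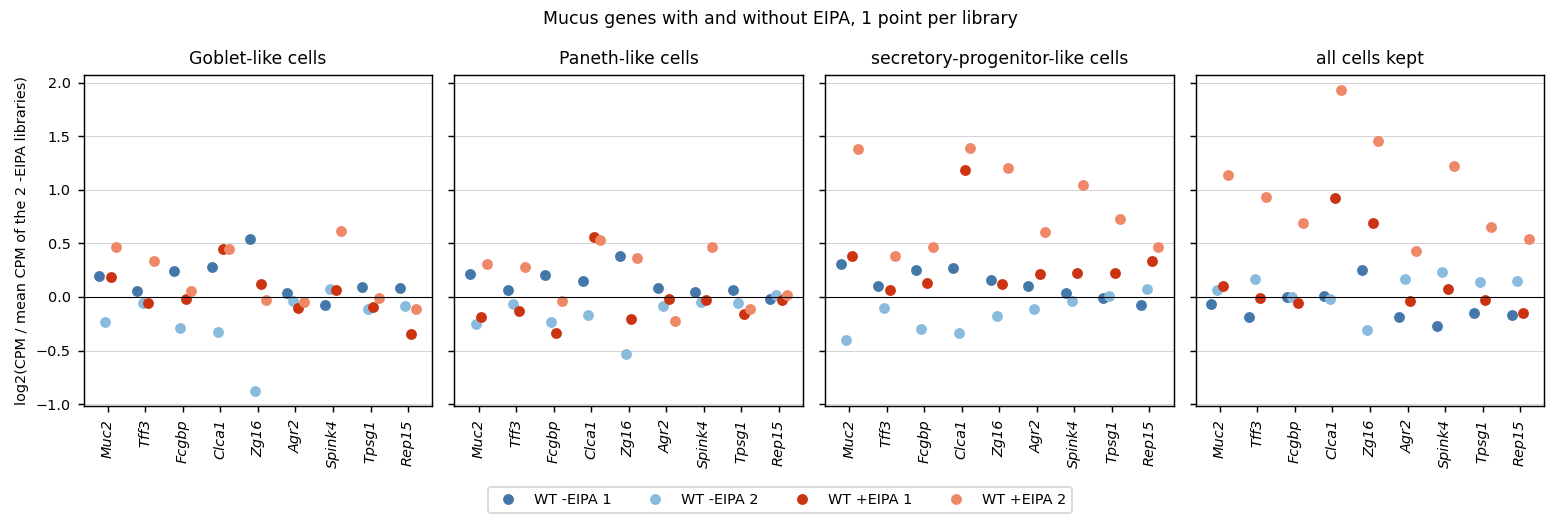
EIPA comparison of the 9 genes, as log2 of each library's CPM over the mean CPM of the 2 -EIPA libraries, in 3 classes and in all cells kept, 1 point per WT library. Clca1 lies above 0 in both +EIPA libraries in each panel, and +EIPA replicate 2 is the highest library for the 9 genes in progenitor-like cells.

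Over all cells kept, where more cells of a class and more RNA per cell cannot be told apart, 0 of the 9 genes were called and 0 of 15890 in all (0%), while 1634 genes had an unadjusted edgeR p under 0.05. Clca1 had 13 and 12.7 CPM under vehicle and 24.4 and 49.3 CPM under the drug (log2 fold change 1.61, edgeR adjusted p = 0.298, and 0.97 to 2.06 with each library left out, lowest without +EIPA replicate 2), and Zg16 92.5 and 62.8 CPM against 125 and 213 CPM (1.21, edgeR adjusted p = 0.352). DESeq2, which called 579 genes, called both, at 4.13e-05 and 0.00196. Both groups were separate for Clca1, Zg16 and Muc2, 3 of 9 genes, against 13.5% of all genes, and for none did both +EIPA libraries lie below, against 33.6% of all genes. With the preparation as a block 0 of the 9 and 4.95% of all genes were called. Cells of sub-cluster 13 made up 0.0714% and 0.0879% of the -EIPA cells and 0.121% and 0.365% of the +EIPA cells, and Regenerative-like cells 0.912% and 1.01% against 3.35% and 5.13%. Both classes held much of the Clca1 RNA, though 146 of the 1942 Regenerative-like cells held 88.2% of that class's Clca1 UMIs. The part of these shares in the levels over all cells was not tested. With clusters corrected by Harmony the Regenerative-like shares were 1.00% and 1.5% against 1.56% and 3.19%, and 59.9% of the cells of sub-cluster 13 were Goblet-like and 29.7% Regenerative-like.

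Whether EIPA acted differently on Paneth-like and Goblet-like cells was tested as an interaction over both classes of each library. It called 0 of the 9 genes and 0.715% of all 11332 genes, and 1071 genes had an unadjusted p under 0.05. The lowest p was that of Muc2, whose log2 change was lower in Paneth-like than in Goblet-like cells by -0.24 (SE 0.0783, unadjusted p = 0.00612, edgeR adjusted p = 0.248). Fcgbp followed with -0.19 (edgeR adjusted p = 0.414), and Clca1 differed by 0.10 (edgeR adjusted p = 0.877).

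None of the genes in 5 lists of the mucus pathway passed the edgeR test in any class. In Goblet-like cells, 24 of 28 genes of mucin O-glycosylation and sugar supply were tested, 11 with a positive and 13 with a negative log2 fold change (median -0.01), beside a median of -2.4e-03 over all genes and 0.12 over the 9. The 14 genes of mucin folding and export had a median of 0.03, the 7 Goblet transcription factors -0.02, 13 of 21 other mucins and mucus proteins -0.05, and the 11 genes of granule exocytosis 0.21. At an unadjusted edgeR p under 0.05 stood 3 genes of the exocytosis list, 3 of the other mucins and 1 of each other list, 9 of 69 genes tested, beside 577 of 10046 over all genes. The 2 most abundant genes of each list had log2 fold changes between -0.21 and 0.23. Gmds, which makes the fucose donor, had 623 and 618 CPM under vehicle and 617 and 635 CPM under the drug. Hspa5, a chaperone of the endoplasmic reticulum, had 1526 and 1401 CPM against 1369 and 1475 CPM, Creb3l1, a transcription factor of secretory cells, 249 and 216 CPM against 283 and 237 CPM, and Lgals4, a galectin, 3632 and 3569 CPM against 3139 and 2783 CPM. The others were the glycosyltransferase Galnt7 (0.21), the transcription factor Xbp1 (0.19), Lypd8 (-0.01), the disulfide isomerase Pdia6 (-9.2e-03) and the granule proteins Vamp8 (0.12) and Sytl2 (0.08), given as log2 fold changes. In Paneth-like cells the medians of the 5 lists lay between -0.03 and 0.06, and in progenitor-like cells between 0.02 and 0.20, with 0.56 over the 9 genes. In progenitor-like cells 21 of 23 glycosylation genes and 11 of 14 folding genes had a positive sign, beside 49.8% of all 9730 genes, and none was called. The median over all genes there was -7.9e-04. With the preparation as a block, 2 of the 69 list genes tested were higher and 2 lower in Goblet-like cells (1.73% of all genes called), 6 of 72 higher and 3 lower in Paneth-like cells (3.70%) and 1 of 67 higher in progenitor-like cells (0.781%). In Goblet-like cells the higher ones were Qsox1, a sulfhydryl oxidase, with 391 and 333 CPM under vehicle and 457 and 485 CPM under the drug (log2 fold change 0.46, edgeR adjusted p = 0.693, with the block 3.90e-04), and the sialyltransferase gene St3gal1, with 35.3 and 14.7 CPM against 40.6 and 35.3 CPM (log2 fold change 0.74, edgeR adjusted p = 0.861, with the block 0.00157). The lower ones were Dmbt1 and Klf4, a transcription factor of goblet cell differentiation, with 263 and 204 CPM under vehicle and 171 and 161 CPM under the drug in Goblet-like cells (log2 fold change -0.41, edgeR adjusted p = 0.825, with the block 0.0233).

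The CRISPR-Cas9 organoids gave 1 library per group, so their values are without a test. A ratio of 2 or more is given as a description, for genes of 10 CPM or more in either library. Over all cells kept, 5 of the 9 genes were past that ratio in +Dox, where 2.17% of all 7852 genes were higher and 0.242% lower by as much. Clca1 had 13.3 CPM without and 41.4 CPM with Dox (ratio 3.11), Zg16 92.5 and 291 CPM (3.15), Tff3 1399 and 3559 CPM (2.54), Spink4 1501 and 3663 CPM (2.44) and Muc2 114 and 275 CPM (2.42). In the vehicle-treated WT libraries Clca1 was at 13 and 12.7 CPM, close to the -Dox value. The share of Paneth-like cells was 5.40% without and 10.6% with Dox, and that of sub-cluster 13 0.188% and 0.877%.

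Within Goblet-like cells the ratios were smaller. None of the 9 reached a ratio of 2, where 0.572% of genes were higher and 1.07% lower by as much. Clca1 had 293 and 306 CPM (ratio 1.05, log2 ratio 0.06 with an exact 95% interval of -0.06 to 0.19, which covers counting error only), Muc2 2047 CPM without and 2264 CPM with Dox (1.11) and Agr2 9233 and 8584 CPM (0.930). Both Muc2 values lay above those of the vehicle-treated WT libraries (1142 and 848 CPM). The largest ratios were those of Zg16, with 2764 and 4070 CPM (1.47), and Tff3, with 21179 and 30366 CPM (1.43). With clusters corrected for library by Harmony, Clca1 and Zg16 reached log2 ratios of 1.09 and 1.00 in this class, so these ratios depend on which cells are called Goblet-like. Paneth markers in the Goblet-like cells summed to 24228 CPM in -Dox and 58419 CPM in +Dox, and their part in these ratios was not tested. In Paneth-like cells only Zg16 was past the ratio, with 160 and 424 CPM (2.65), where 0.441% of genes were higher and 0.376% lower by as much, and Agr2 had 2489 and 2075 CPM (0.834). The vehicle-treated WT libraries had 481 and 255 CPM of Zg16 in this class. The +Dox value lay between them and the -Dox value below both.

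In secretory-progenitor-like cells 4 of the 9 genes were past a ratio of 2, where 1.54% of genes were higher and 1.56% lower by as much. Zg16 had 15.6 CPM in -Dox and 2181 CPM in +Dox, Clca1 18.8 and 194 CPM, Muc2 120 and 671 CPM, and Spink4 3787 and 9029 CPM. In the vehicle-treated WT libraries Zg16 was at 171 and 135 CPM in this class, both above its -Dox value. Muc2 was at 121 and 73.7 CPM there, with its -Dox value between them. Tpsg1, with 46.0 and 91.8 CPM, stayed just under the ratio. With clusters corrected by Harmony only 2 genes were past it, Zg16 and Clca1, at log2 ratios of 1.57 and 1.44. A few cells carried the first 2. In +Dox 5 of 138 cells held 99.1% of the Zg16 UMIs and the 5 highest for Clca1 held 92.0% of its UMIs, and without the 5 highest cells Zg16 stood at 11 CPM in -Dox and 21.3 CPM in +Dox, and Clca1 at 8.17 and 16.6 CPM. For Muc2 and Spink4 the 5 highest cells of +Dox held 55.3% and 25.7% of the UMIs. Without the 5 highest cells Muc2 stood at 92.7 CPM in -Dox and 328 CPM in +Dox, and Spink4 at 3229 and 7241 CPM. The 5 cells of highest Zg16 had a median depth of 27662 UMIs, against 12394 UMIs in the class, and 1 of them was among the highest doublet scores. Paneth markers in the class summed to 4629 CPM in -Dox and 24938 CPM in +Dox, and their part in these values was not tested.

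**Figure D5:**
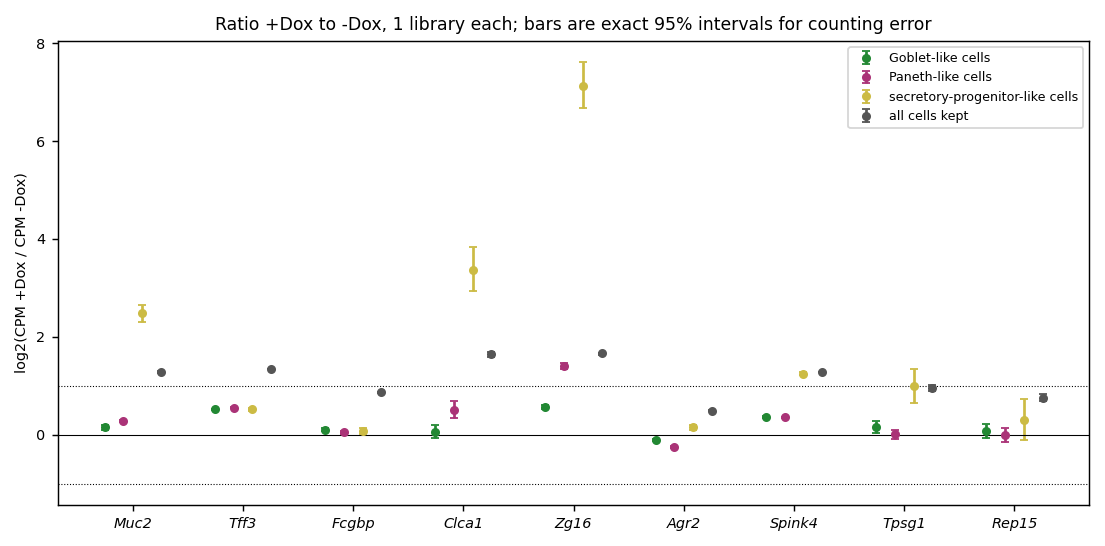
Log2 ratio of +Dox to -Dox CPM for the 9 genes in 3 classes and in all cells kept, from 1 library each, with bars for exact 95% intervals of counting error and dotted lines at a ratio of 2 in either direction. Progenitor-like Zg16 (7.13) and Clca1 (3.37) lie highest, and Goblet-like values lie between -0.11 and 0.56.

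Of the pathway lists, no glycosylation, folding or transcription factor gene was past a ratio of 2 in the 3 classes. Dmbt1, a scavenger receptor glycoprotein of the mucus, was lower with Dox in each and over all cells kept (145 and 37.9 CPM), with 37.0 and 9.05 CPM in Goblet-like, 74.5 and 14 CPM in Paneth-like and 78.0 and 26.9 CPM in progenitor-like cells. In the +EIPA libraries Dmbt1 had 64.8 and 31.5 CPM in Goblet-like cells, against 105 and 85.8 CPM without EIPA (log2 fold change -0.95, SE 0.258, edgeR adjusted p = 0.600, with the preparation as a block 6.29e-10), and in progenitor-like cells its groups overlapped, at 167 and 92.0 CPM under vehicle and 120 and 121 CPM under the drug. Muc4, a membrane mucin, had 16.9 and 6.50 CPM and Nlrp6, an inflammasome sensor, 42.1 and 17.2 CPM in Goblet-like cells, both lower in +Dox. Rab27a, a GTPase of granule docking, had 6.37 and 14.6 CPM there and was the only granule gene of Goblet-like cells past the ratio upwards. In progenitor-like cells Lgals3, Tff2 and Rab27b were past the ratio upwards, with 10.4 and 22.9 CPM, 2.40 and 13.5 CPM, and 24.8 and 51.9 CPM. Muc13, a membrane mucin, had 145 CPM in -Dox and 366 CPM in +Dox over all cells, a ratio of 2.52, but 448 and 648 CPM within Goblet-like cells.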

How the data were processed

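Cells of 6 libraries were profiled with 10x 3′ v3.1 kits. The authors aligned the reads with Cell Ranger 6.1.2 to the mouse genome (GRCm38, mm10) and deposited raw UMI counts per gene and barcode, without normalization. About 20000 cells were loaded per condition. The 9 genes and the pathway lists were chosen with earlier results of these data known.

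Barcodes needed 1000 genes or more and a mitochondrial share below 20%. Pearson residuals of 3000 genes, the 9 genes and the lists left out, were reduced to 45 components, joined by 20 neighbors and clustered (Leiden, resolution 0.8), and secretory cells were clustered again (13 components, resolution 1) with scanpy 1.11.5 and igraph 0.11.9 in Python 3.11.15. The rule for names was made stricter after the clusters were seen, which left sub-cluster 13 unnamed. Of a cell's neighbors 56.7% came from its own library (27.5% with Harmony). Scrublet's own threshold marked 0.0476% and 0% of the first WT -EIPA and WT +EIPA libraries and so had not worked there, and doublets were kept.

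Counts were summed per class and library and tested with edgeR 4.0.16 in R 4.3.3 (TMM, filterByExpr, quasi-likelihood, Benjamini-Hochberg adjustment), with DESeq2 1.42.0 as an alternative. Each of the 9 genes passed the filter in each class. Of 200 simulated 2-fold changes edgeR recovered 93.0% in Goblet-like (9881 genes), 96.5% in Paneth-like (11843 genes), 89.0% in progenitor-like (9563 genes) and 98.0% over all cells (15724 genes). Of its calls 5.58%, 3.02%, 6.81% and 6.67% were false, in the same order. The simulation gave each gene the same dispersion and no effect of the preparation, and changed only genes above a minimum count. These shares hold for that setting and do not say how often a real change would be called. Over all cells Clca1, with a log2 fold change of 1.61, was not called. Same-numbered WT libraries come from the same preparation per the study's source data. Their deviations from the group means correlated at 0.643 over all cells, 0.281 in Goblet-like, 0.480 in Paneth-like and 0.253 in progenitor-like cells. Preparation was no block in the reported fit. Positions are from GENCODE vM21, and promoter sequences from RefSeq. The 9 genes were all named, and list genes were named where called by edgeR or among the 2 most abundant in Goblet-like cells, while Klf4, Dmbt1, Qsox1, St3gal1, Muc4, Nlrp6, Rab27a, Rab27b, Lgals3, Tff2 and Muc13 were chosen after their values were seen. The gene targeted by the construct is not reported here.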

Additional observations from a re-analysis of the deposited data

How the results depend on the processing

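The EIPA change of Clca1 was positive in each setting run: 0.25 to 1.25 on the log2 scale in Goblet-like, 0.52 to 1.22 in Paneth-like and 0.85 to 2.71 in progenitor-like cells. So were those of Muc2 and Spink4 in Goblet-like cells, and those of all of the 9 genes but Zg16 in progenitor-like cells. The settings refit the same WT libraries, so a constant sign is no independent support. The count of genes called over all genes moved with the setting. DESeq2 called 579 genes over all cells, 8 in Goblet-like and 75 in Paneth-like cells, and the replicate block called 787, 174, 443 and 76 genes over all cells and in Goblet-like, Paneth-like and progenitor-like cells. In Goblet-like cells the count was 17 scaled by library size, 2 without a filter, 1 with strict limits on cells, 5 without the highest doublet scores, 10 with Harmony, 9 at resolution 2, 2 in sub-cluster 11 alone, 1 without it and 18 with sub-cluster 13 added. In Paneth-like cells it was 47 scaled by library size, 3 without a filter, 0 without the highest doublet scores (431 at an unadjusted edgeR p under 0.05) and 12 with Harmony. In progenitor-like cells it was 2 without the highest doublet scores and 13 at resolution 2. The interaction gave 23 calls with Harmony.

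The signs that turned were those of changes with no call in the reported fit. In Goblet-like cells Agr2 and Tpsg1 had -0.07 and -0.05 scaled by library size, -0.03 and -0.03 with strict limits, -0.02 and -0.02 without the highest doublet scores, -0.04 and -0.06 with Harmony and -0.02 and -0.03 with sub-cluster 13. Tpsg1 had -0.10 and Rep15 0.07 in sub-cluster 11 alone, and Agr2 -0.03 without it. In Paneth-like cells Rep15 had -3.3e-03 scaled by library size, Agr2 and Tpsg1 0.02 and 3.9e-03 without the highest doublet scores, and Fcgbp and Agr2 6.4e-03 and 0.01 with sub-cluster 13. Progenitor-like Zg16 had -0.37 without the highest doublet scores and 4.46 at resolution 2. The interaction of Tff3 and Tpsg1 was 0.02 and 0.02 with Harmony.

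With each WT library left out in turn, the count of genes called was 0 to 93 over all cells, 0 to 29 in Goblet-like, 22 to 59 in Paneth-like and 3 to 33 in progenitor-like cells, and 15 to 131 for the interaction. Over all cells the change ranged from -0.02 to 0.80 for Fcgbp, -0.11 to 0.66 for Rep15 and 0.73 to 1.58 for Zg16. In Goblet-like cells it ranged from -0.02 to 0.46 for Tff3, -0.14 to 0.39 for Fcgbp, -0.42 to 1.00 for Zg16, -0.07 to 0.08 for Agr2, -0.07 to 0.13 for Tpsg1 and -0.31 to 0.01 for Rep15. For Muc2 and Spink4 in these cells it ranged from 0.22 to 0.64 and from 0.09 to 0.74. In Paneth-like cells it ranged from -0.16 to 0.49 for Muc2, -0.11 to 0.46 for Tff3, -0.31 to 0.15 for Fcgbp, -0.18 to 0.73 for Zg16, -0.08 to 0.04 for Agr2, -0.01 to 0.65 for Spink4, -0.15 to 0.07 for Tpsg1 and -7.5e-03 to 0.20 for Rep15. The interaction ranged from -0.09 to 2.9e-03 for Tff3, -0.04 to 0.27 for Clca1, -0.44 to 0.36 for Zg16, -0.11 to 0.07 for Agr2 and -0.20 to 0.02 for Spink4.

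With Harmony, 2 of the 9 genes were higher by a Dox ratio of 2 or more in each of the 3 classes. In the reported clusters it was 0 in Goblet-like, 1 in Paneth-like and 4 in progenitor-like cells. The share over all genes was not taken with Harmony. The causes were not tested. The removal of cells by Scrublet's own threshold was not run, since it had failed in 2 libraries. The removal of the highest doublet scores, and the settings with sub-clusters 3, 6, 9, 11 and 13, were chosen after seeing the data. Precision is limited by 2 libraries per WT group, 1 per Dox group, and 39 to 389 UMIs for Zg16 and Clca1 in some progenitor-like sums.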
